A study of Mus musculus with 18 samples.

Results

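The Eomes domain was examined as it is seen from the VPE, an enhancer just downstream of the Eomes gene on mouse chromosome 9. The members are all DpnII restriction fragments between chr9:117400000-119400000 (mm9), a window of 2 Mb that holds 4705 of the 301040 fragments of the chromosome. Of these 4705 fragments, 4140 carried at least 1 VPE read in some library. The domain itself is the interval chr9:117928997-118435452, 506 kb long, whose ends were read from a figure of the Eomes promoter capture of the same libraries and are therefore not independent of these cells. Within it, 89 fragments lay less than 20 kb from the VPE, of which 73 had a read, and 1066 lay farther away, of which 976 had a read. The other 3550 fragments of the window lay outside the domain, and 3091 of them had a read.

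The contacts were measured by NG Capture-C. In this assay chromatin is crosslinked, cut with DpnII and religated, and oligonucleotides then pull down the ligation products of a chosen site, the viewpoint, so that sequencing counts the fragments to which it was joined. Each cell type had 3 libraries (n = 3 throughout, replicates 1 to 3). Embryonic stem cells (ESC, day 0, strain 129/Sv//EV) were the undifferentiated state. Definitive endoderm (DE, day 5, the same strain) was made from them through embryoid bodies with Activin A and EGF, and no sort of the cultures is described. Erythrocytes came from spleens of C57BL/6 mice made anaemic with phenylhydrazine and carry a day 5 label. Strain and cell type therefore cannot be told apart in either erythrocyte comparison, and no RNA is read, so the cell type labels could not be checked against marker genes. The study calls its replicates biological, but the labels do not say that they came from separate cultures or animals, and p-values measure only the spread between these libraries.

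Eomes encodes a T-box transcription factor needed for the formation of mesoderm and definitive endoderm at gastrulation. An enhancer is thought to act on a promoter that it meets in the nucleus, and such meetings are most frequent inside blocks of chromatin whose parts contact each other more than their surroundings. Such blocks often end at sites bound by CTCF, a zinc finger protein that halts cohesin-driven loop extrusion. Erythrocytes stand here for a lineage that does not use the gene.

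The viewpoint was taken to be 3 fragments at chr9:118394813-118397837, 3025 bases, a run that holds no values from any enhancer viewpoint used here. Its extent was inferred from this gap. Their first base lies 438 bases inside the annotated end of Eomes, so the gene body and the viewpoint are neighbours. The left edge of the domain lay 467 kb upstream of the viewpoint centre and the right edge 39.1 kb downstream. The stretches below are the mm9 reference, + strand, and are shown because the results turn on contact between the first and the second. Capitals mark GATC, the site cut by DpnII.

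VPE viewpoint, its central 300 bases, chr9:118396175-118396474: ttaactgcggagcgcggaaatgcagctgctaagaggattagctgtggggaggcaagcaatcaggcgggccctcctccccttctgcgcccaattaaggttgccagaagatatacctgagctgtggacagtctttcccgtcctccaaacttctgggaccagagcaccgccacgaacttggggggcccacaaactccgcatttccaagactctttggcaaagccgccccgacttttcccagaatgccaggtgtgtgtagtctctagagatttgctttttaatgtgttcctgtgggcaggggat
Eomes promoter, the 250 bases before the start site, chr9:118387080-118387329: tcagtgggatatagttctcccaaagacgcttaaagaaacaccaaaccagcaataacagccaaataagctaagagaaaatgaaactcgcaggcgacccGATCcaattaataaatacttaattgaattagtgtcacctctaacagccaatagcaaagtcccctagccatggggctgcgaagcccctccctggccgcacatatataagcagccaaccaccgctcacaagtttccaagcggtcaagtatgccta

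Letter patterns were searched on both strands in the 3 viewpoint fragments, and beside each stands the share of 661 stretches of 3025 bases along the window that hold it. The T-box pattern AGGTGTGA (14.4% of stretches), the FOXH1 pattern AATCCACA (12.6%), the SMAD pattern GTCTAGAC (3.33%) and the CTCF core motif (8.47%) had no match there. The GATA pattern AGATAA, which 80.2% of stretches hold, had 2. Within 50 kb of the right edge the CTCF core matched at chr9:118398694-118398705 and at chr9:118480629-118480640, both on the minus strand. The first lies 36.8 kb inside the edge and next to the VPE, the second 45.2 kb outside it, and no match lay within 50 kb of the left edge. A match is a run of letters and not a measured binding site, and exact strings leave out the variants of a site that a weight matrix would score, so no match says nothing about FOXH1, SMAD or other factors at the VPE. The first is shown with its surroundings, the matched bases in capitals, because it falls in a fragment whose contact differed between cell types.

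CTCF core match beside the VPE, chr9:118398680-118398719: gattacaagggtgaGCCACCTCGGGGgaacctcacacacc

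Every value below is per 100000 VPE interactions on chromosome 9 unless a share, a ratio or a difference is named. The libraries held 20019, 21091 and 10127 interactions in ESC, 63540, 72117 and 36973 in DE, and 37747, 7894 and 12729 in erythrocytes, so DE was the deepest cell type. Of these, 62.1 to 69.2% were on chromosome 9 in ESC and 54.8 to 57.9% in DE, against 40.7%, 74.1% and 38.4% in erythrocytes, where replicate 2 stood apart. The share within 20 kb of the VPE was 27.1%, 24.6% and 24.6% in ESC and 15.1%, 14.4% and 14.2% in DE. In erythrocytes it was 23.5%, 18.9% and 41.6%, with replicate 3 apart. With a smaller near share, the remaining values of DE are higher on a scale that sums to a constant, so comparisons of level between ESC and DE are also given per interaction beyond 20 kb where that matters.

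**Figure D1:**
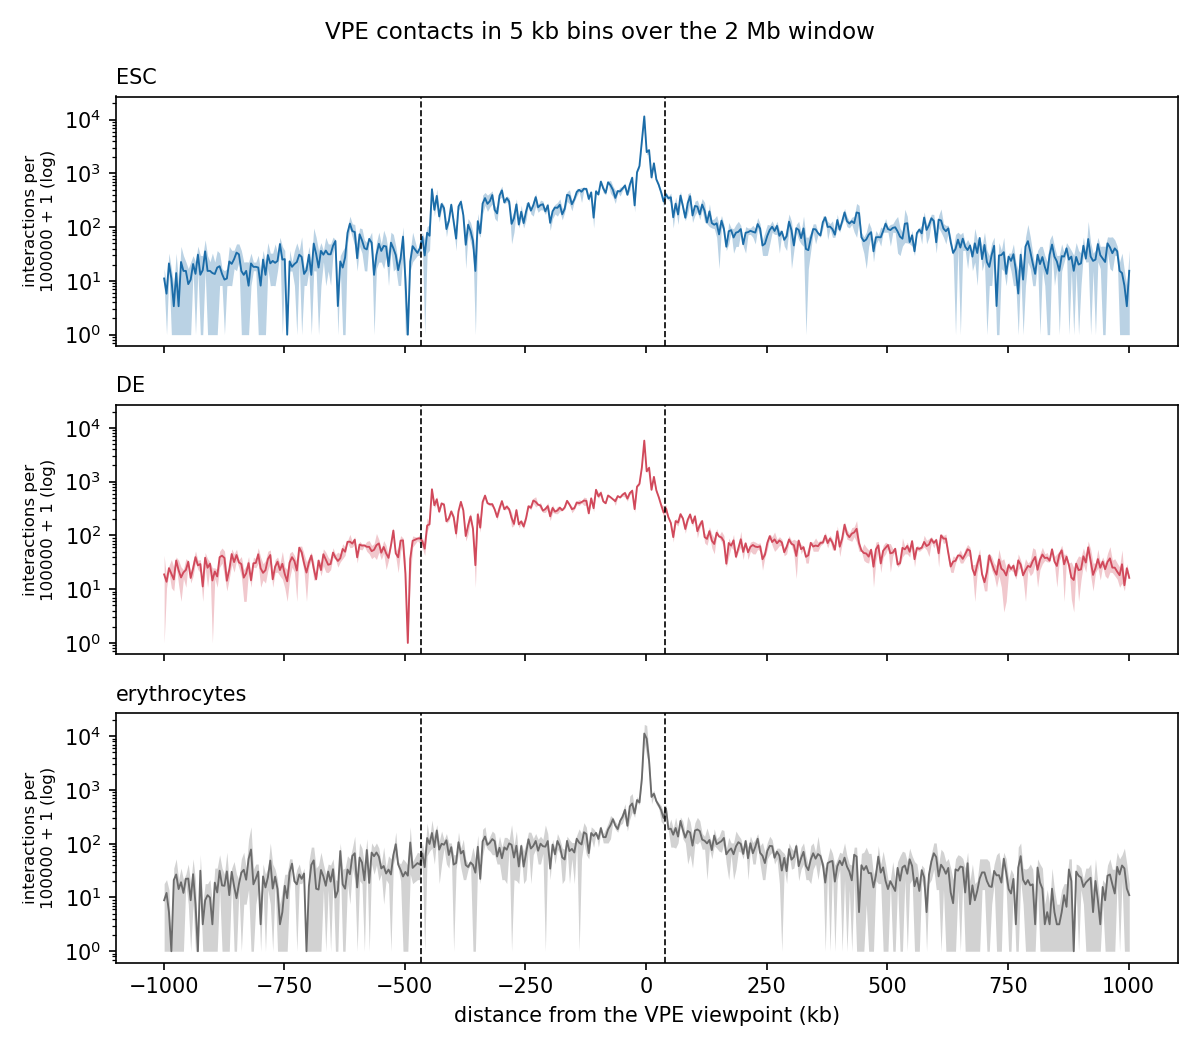
VPE contact in 5 kb bins against distance from the viewpoint in kb, within 1 Mb on either side, on a log axis of interactions per 100000 on chromosome 9 plus 1. Lines are means of the 3 libraries of each cell type, bands run from the lowest to the highest library, and dashed lines are the domain edges; upstream contact stays above downstream contact in ESC and DE and drops near the left edge, while erythrocytes lie lower through the upstream part.

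The domain held about the same share of long-range VPE contact in ESC and DE, whose libraries overlapped, and a smaller share in erythrocytes. Of the chromosome 9 interactions farther than 20 kb from the VPE, the domain held 38.1%, 38.1% and 37.4% in the ESC libraries. It held 38.4%, 37.2% and 38.7% in DE, and 16.2%, 17.5% and 19.7% in erythrocytes. The ESC and DE libraries overlapped, while every erythrocyte library lay below all 6 of the others. The means were 37.8% ± 0.398 (SD) in ESC, 38.1% ± 0.791 in DE and 17.8% ± 1.74 in erythrocytes. DE exceeded ESC by 0.267 percentage points (exact two-sided permutation p = 0.6). Erythrocytes differed from ESC by -20.0 points and from DE by -20.3 points, each with an exact permutation p = 0.1, the smallest value that 3 libraries against 3 allow. The counts behind the shares ran from 562 of 2858 reads in erythrocyte replicate 3 (95% Wilson interval 18.2 to 21.2%) to 13296 of 35721 in DE replicate 2. Reads carry no molecular identifiers, so the intervals cover counting error only.

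Which total is taken changes the comparison of ESC with DE but not the place of erythrocytes. As a share of contact beyond 20 kb within the 2 Mb window, the domain held 60.4% ± 0.887 in ESC, 67.1% ± 1.06 in DE and 50.7% ± 2.33 in erythrocytes. Here the DE libraries lay above the ESC libraries without overlap, by 6.69 points (exact permutation p = 0.1). Leaving out only 10 kb around the VPE turned the difference on chromosome 9 to -1.66 points, again without overlap.

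**Figure D2:**
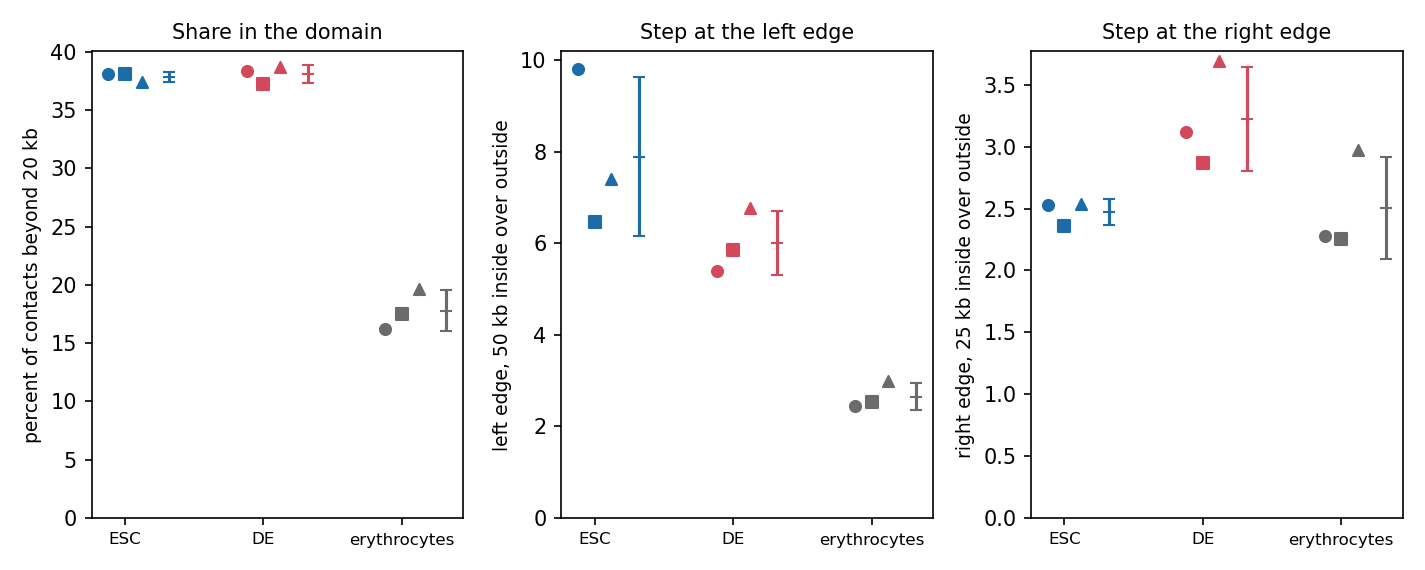
Share of VPE contact beyond 20 kb that lies in the domain (percent), the ratio of contact inside over outside the left edge in 50 kb windows and over the right edge in 25 kb windows, for each cell type. Points are the 3 libraries and bars the mean ± SD; erythrocytes lie below both other cell types in the share and at the left edge, and overlap ESC at the right edge.

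The left edge was a clear step in ESC and DE and a shallower one in erythrocytes. Contact per kb in the 50 kb inside this edge exceeded that in the 50 kb outside by 9.82, 6.46 and 7.41 times in ESC, by 5.40, 5.85 and 6.77 times in DE and by 2.43, 2.52 and 2.99 times in erythrocytes. ESC and DE overlapped (7.90 ± 1.73 and 6.01 ± 0.701, exact permutation p = 0.2), and erythrocytes lay below both without overlap (2.65 ± 0.297, p = 0.1 each). The level on both sides took part: ESC had 38.9 interactions per kb inside and 5.07 outside, DE had 59.9 and 10.0, and erythrocytes had 20.0 and 7.64. The windows outside held 28, 43 and 16 reads in ESC, 188, 217 and 95 in DE and 54, 30 and 14 in erythrocytes. The ESC and erythrocyte ratios therefore rest on few reads.

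A sharp fall between 2 neighbouring bins lay a little inside the edge as read from the promoter capture. The 5 kb bin centred 443.8 kb upstream of the VPE held 592, 492 and 429 in ESC, 719, 723 and 721 in DE, and 117, 274 and 81.8 in erythrocytes. The next bin outwards, at 448.8 kb, held 36.1, 57.1 and 111 in ESC, 163, 156 and 163 in DE, and 71.6, 120 and 102 in erythrocytes. All ESC and DE libraries fell between these 2 bins, and erythrocyte replicate 3 did not. In ESC and DE the inner bin stood above the mean level of the 50 kb inside the edge. In both cell types the outer bin was still above the mean level outside the edge, so this fall does not place the edge. The start site of Azi2, which encodes an adaptor of the kinase TBK1, lies 446.7 kb upstream, at this fall.

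At the right edge the cell types were closer. The 50 kb inside this edge include the viewpoint, so their ratio (9.87 ± 1.26 in ESC, 8.20 ± 0.524 in DE, 16.6 ± 10.3 in erythrocytes) follows the contact nearest to it. Windows of 25 kb, chosen after the values were seen, leave out the viewpoint, but the inner one still reaches within 20 kb of its centre. ESC contact per kb downstream fell from 235 at 10 to 20 kb to 98.1 at 20 to 39 kb and 54.4 at 39 to 100 kb. The part of this fall with distance in the ratio was not tested. The 25 kb windows gave 2.47 ± 0.102 in ESC, 3.22 ± 0.422 in DE and 2.50 ± 0.411 in erythrocytes. DE lay above ESC without overlap (exact permutation p = 0.1), the opposite order to the wider windows. Erythrocytes differed from ESC by 0.0298 (exact permutation p = 1) and overlapped both cell types.

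Contact by distance showed where the cell types part. The 16 distance classes were set after the values had been seen and are given as a description. Upstream of the gene, DE over ESC rose with distance. It was 0.98 at 50 to 100 kb, where libraries overlapped, 1.11 at 100 to 200 kb, 1.25 at 200 to 300 kb and 1.38 at 300 to 400 kb. In the last part of the domain, from 400 to 467 kb, it reached 1.52, with contact per kb of 37.1 ± 0.54 in ESC and 56.5 ± 1.30 in DE. Beyond the left edge it was 1.41. Near the VPE it was 0.51 at 1.5 to 10 kb upstream and 0.55 at 10 to 20 kb. Downstream it lay below 1 in all 7 classes, from 0.66 at 1.5 to 10 kb to 0.87 at 20 to 39 kb, where libraries overlapped, and 0.71 just beyond the right edge. Scaled to interactions beyond 20 kb, the far upstream class of the domain was still higher in DE (1.33, no overlap), as was 300 to 400 kb (1.20). The class at 100 to 200 kb was then 0.97 with overlapping libraries, those at 20 to 50 and 50 to 100 kb were 0.88 and 0.85 without overlap, and all 7 downstream classes were below 1 without overlap.

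Erythrocytes had least contact, relative to ESC, in the middle of the upstream domain. Erythrocyte over ESC contact was 0.75 at 20 to 50 kb upstream, 0.38 at 50 to 100 kb, 0.30 at 100 to 200 kb, 0.34 at 200 to 300 kb and 0.37 at 300 to 400 kb, without overlap in any of these classes. It was 0.52 at 400 to 467 kb and 1.01, with overlap, beyond the left edge. Downstream, the class at 1.5 to 10 kb was 2.33 times ESC and 3.53 times DE, with 1203, 925 and 2509 interactions per kb in replicates 1 to 3. Other downstream classes were lower than in ESC. The ratio was 0.59 at 10 to 20 kb and 0.68 at 39 to 100 kb, without overlap. It was 0.71 at 200 to 400 kb and 0.43 beyond 400 kb, again without overlap. At 20 to 39 kb (0.95) and 100 to 200 kb (0.87) libraries overlapped. Upstream near the VPE it was 0.88 at 1.5 to 10 kb, with overlap, and 0.41 at 10 to 20 kb, without.

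**Figure D3:**
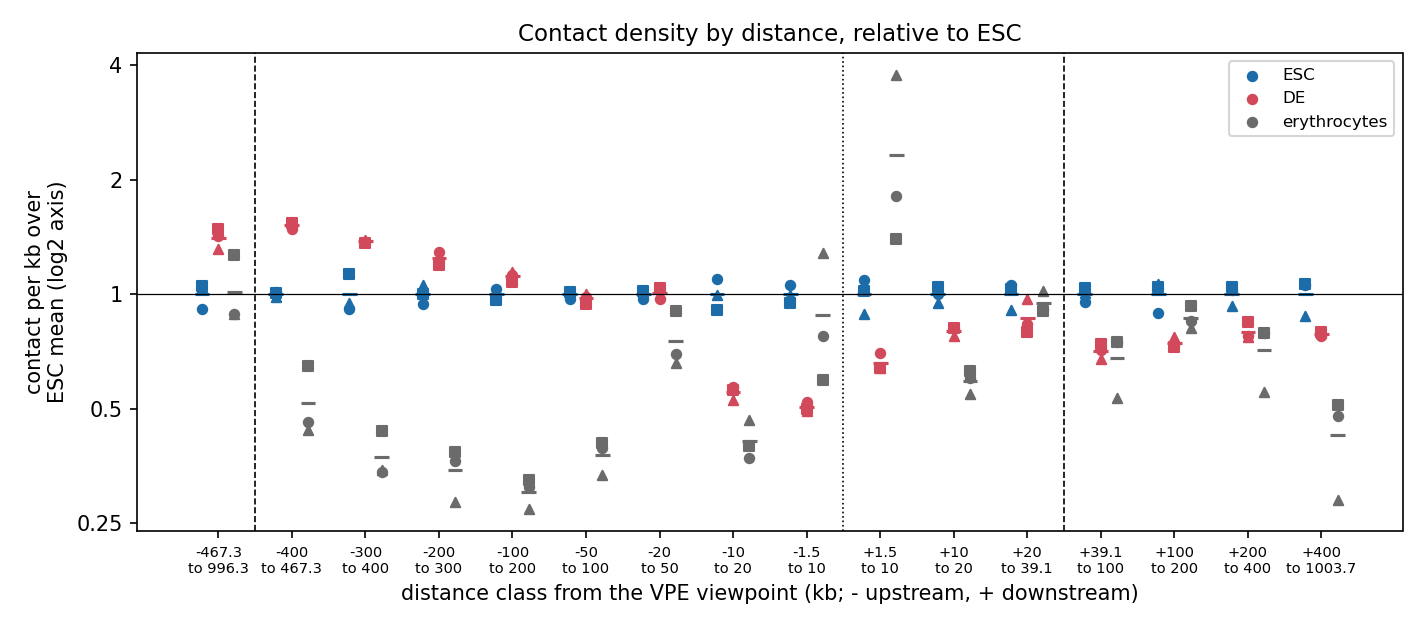
Contact per kb relative to the ESC mean in 16 distance classes on either side of the VPE, for each library. Circles, squares and triangles are replicates 1, 2 and 3, dashed lines the domain edges and the dotted line the viewpoint; DE lies at 1.52 in the outermost upstream class of the domain and at 0.51 next to the VPE, while erythrocytes fall to 0.30 at 100 to 200 kb upstream.

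A ratio of the contact upstream to that downstream at equal distance needs no scale. From 50 kb outwards it sets fragments of the domain against fragments past the right edge, while the band at 20 to 50 kb crosses that edge. In ESC the ratio was 1.24 ± 0.105 at 20 to 50 kb, 2.10 ± 0.0743 at 50 to 100 kb, 2.65 ± 0.347 at 100 to 200 kb and 2.59 ± 0.226 at 200 to 400 kb. In DE it was higher in all 4 bands, at 1.53 ± 0.113, 2.85 ± 0.192, 3.94 ± 0.0603 and 4.24 ± 0.299. In erythrocytes it was 1.05 ± 0.169, 1.21 ± 0.129, 0.919 ± 0.0435 and 1.31 ± 0.152. DE and ESC did not overlap in any band, and neither did DE and erythrocytes (exact permutation p = 0.1 for each). Erythrocytes and ESC overlapped at 20 to 50 kb (exact permutation p = 0.3) and not in the other 3 bands (p = 0.1 each). Of 42 such exact comparisons of shares, steps, ratios and levels, 31 reached p = 0.1, and after Benjamini-Hochberg adjustment the lowest was 0.135.

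**Figure D4:**
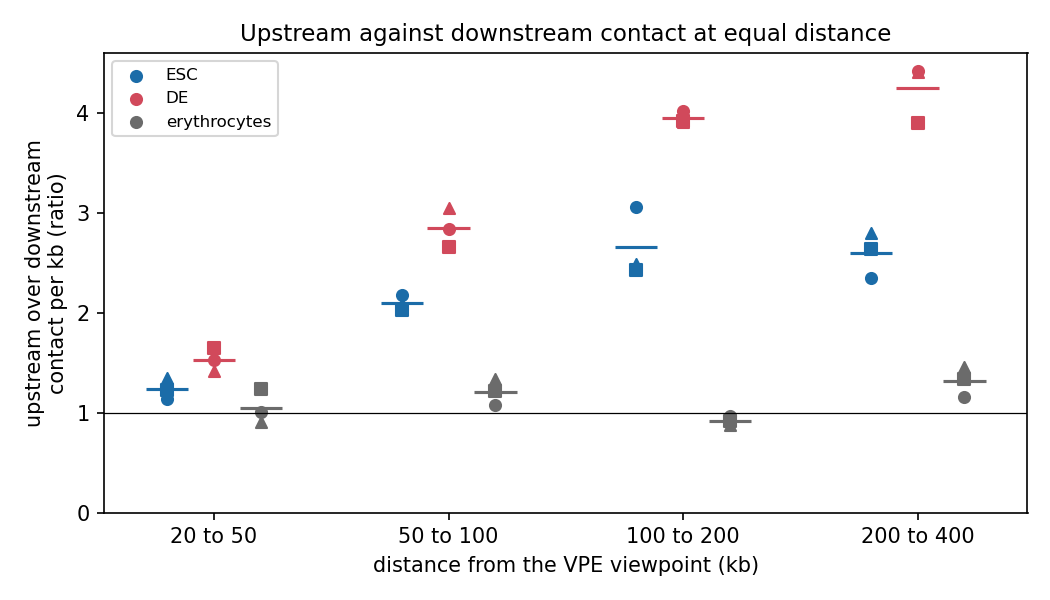
Ratio of VPE contact upstream over downstream at equal distance, in 4 distance bands. Points are libraries and horizontal bars the means of 3. DE lies above ESC in every band and erythrocyte means lie between 0.919 and 1.31.

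The Eomes gene body, whose fragments with values reach from the start site 9.0 kb upstream of the viewpoint centre to the edge of the viewpoint fragments, was joined to the VPE in DE at 0.51 times its level in ESC. Its 15 fragments with values (chr9:118387330-118395250, 7619 bases with values) together held 14249, 12760 and 13341 in ESC, 7047, 6764 and 6622 in DE, and 10540, 8121 and 17566 in erythrocytes. All DE libraries lay below all ESC libraries, and erythrocytes were spread across the ESC range. Per kb the means were 1765 in ESC, 894 in DE and 1585 in erythrocytes. The fall from ESC to DE was not particular to the gene. DE over ESC was also 0.55 at 10 to 20 kb upstream of the VPE and 0.66 at 1.5 to 10 kb downstream, without overlap. Among the 5 kb bins tested alone, 5 of 8 within 20 kb were lower in DE, against 1.02% of all bins. The log2 difference on the log2(value + 10) scale was -0.98 for DE minus ESC (SE 0.05, limma adjusted p = 2.56e-20), fitted together with the 5 kb bins of the chromosome, of which 4.69% passed 0.05 (3.13% higher and 1.56% lower in DE). With all 3 cell types in one fit the adjusted p was 0.000588. In these fits the bins and the regions share reads, so they are not separate features. The exact permutation test gave p = 0.1. Erythrocytes differed from ESC by -0.23 (SE 0.32, limma adjusted p = 0.725) and from DE by 0.75 (SE 0.26, limma adjusted p = 0.0811), although the erythrocyte and DE libraries did not overlap. Without erythrocyte replicate 3 the first difference was -0.54 (limma adjusted p = 0.0113) and the second 0.44 (0.0399). Without replicate 2 they were 0.018 (0.978) and 1.00 (0.00217).

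All 15 fragments of the gene body fell from ESC to DE (log2 differences of -1.55 to -0.55) and passed the threshold. In the fit of all chromosome 9 fragments, 27 of 73 within 20 kb of the VPE passed as lower, against 1.61% of all fragments. Those 73 include the gene body. When any 1 library was left out, all 15 still fell and 14 or 15 passed. With the 3 cell types in one fit 5 of the 15 passed. Fragments with exon and fragments in introns alone each differed by -0.98. The first fragment, at the start site, held 520, 542 and 620 in ESC and 360, 285 and 277 in DE. The last one before the viewpoint held 1784, 1491 and 1685 in ESC and 844, 855 and 874 in DE. Per kb, the last fragment held 4.65 ± 0.632 times the contact of the first in ESC and 4.45 ± 0.677 times in DE. The values did not climb steadily between them: the 30-base fragment 9 held less in total than the first in all these libraries.

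In erythrocytes the gene was contacted more unevenly. The first fragment held 286, 239 and 266, below all ESC libraries, and the last held 3203, 1453 and 4969, which spans the ESC values. The last fragment adjoins the viewpoint fragments, and the part of this position in its values was not tested. Their ratio per kb was 18.8 ± 9.96, from 9.53 to 29.3. Against ESC, 8 of 15 fragments passed as lower, namely fragments 1 to 7 and 9 counted from the start site. Against DE 3 fragments passed as higher, namely 11, 14 and 15. Of the bins fitted with them, 17.9% passed against ESC (0.187% higher, 17.7% lower) and 6.05% against DE (0.146% higher, 5.91% lower). With 1 library left out, 7 to 9 fragments passed as lower against ESC and 1 to 5 as higher against DE. The number against DE was 1 both without erythrocyte replicate 1 and without DE replicate 3, and 5 without erythrocyte replicate 2. The share within 20 kb differed between these replicates in the same sense, and its part in the result was not tested.

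**Figure D5:**
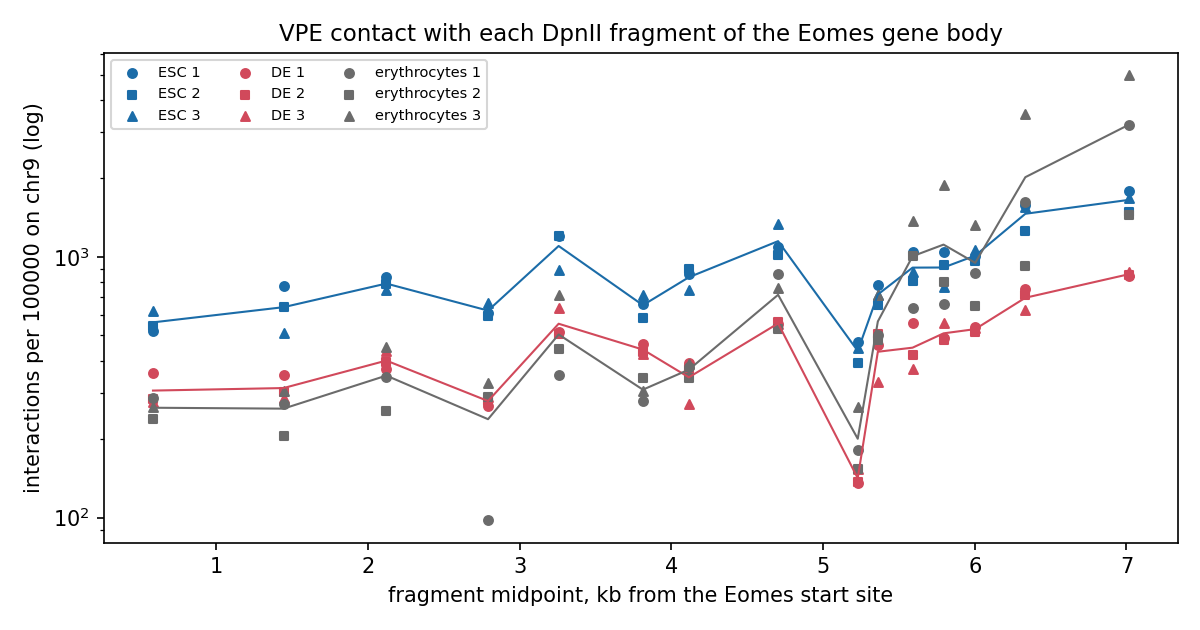
VPE contact of the 15 gene body fragments against their distance from the Eomes start site in kb, in interactions per 100000 on chromosome 9. Points are libraries and lines the means of 3; DE lies below ESC in every fragment, and erythrocytes run from below ESC at the start site to a mean above ESC at the last fragment.

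Contact on the side of the gene was also set against contact at the same distances downstream of the VPE, a ratio added after the values were seen. It was 2.45 ± 0.236 in ESC, 1.90 ± 0.0605 in DE and 0.966 ± 0.132 in erythrocytes. No 2 cell types overlapped (exact permutation p = 0.1 each). The gene side exceeded the other side in every ESC and DE library, most in ESC.

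The Eomes promoter, the 2 fragments at chr9:118386135-118388645, was contacted less in DE and in erythrocytes than in ESC. It held 1069, 991 and 1145 in ESC, 586, 501 and 558 in DE, and 599, 410 and 593 in erythrocytes. The DE and erythrocyte libraries overlapped each other and lay below all ESC libraries. DE minus ESC was -0.95 (SE 0.13, limma adjusted p = 3.96e-07) and erythrocytes minus ESC -1.01 (SE 0.29, limma adjusted p = 0.00655). Erythrocytes minus DE was -0.05 (limma adjusted p = 0.935), and the sign turned to 0.20 when values were scaled to interactions beyond 20 kb.

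Just upstream of the promoter lay the fragments with the lowest DE to ESC difference near the VPE. They are 3 neighbours, shown as one stretch because they moved together, with GATC in capitals. The other sequence is the 30-base intron fragment with the lowest difference inside the gene.

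The 3 neighbouring fragments, chr9:118385981-118386134: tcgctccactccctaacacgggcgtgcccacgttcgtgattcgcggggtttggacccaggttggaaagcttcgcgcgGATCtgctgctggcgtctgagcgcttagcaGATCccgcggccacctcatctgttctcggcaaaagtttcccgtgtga
Intron fragment, chr9:118392544-118392573: tccacctgcctctgcccccgaaagctggga

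The first of the 3 neighbours, 79 bases long, held 303, 314 and 366 in ESC, 74.7, 122 and 59.3 in DE and 39.1, 103 and 81.8 in erythrocytes. Its DE minus ESC difference was -1.87 (SE 0.25, limma adjusted p = 1.99e-07). The next, 30 bases long, held 325, 143 and 143 in ESC and 60.8, 50.3 and 54.3 in DE. The third, 45 bases long, held 332, 235 and 286 in ESC and 88.5, 62.3 and 114 in DE. Each ESC library exceeded each DE library in all 3 fragments. The 141-base fragment on their upstream side moved likewise, from 376, 228 and 413 to 116, 120 and 114. The intron fragment held 469, 392 and 445 in ESC, 136, 137 and 153 in DE and 182, 154 and 266 in erythrocytes. Against ESC, the 3 neighbours were also among the fragments with the lowest erythrocyte values near the VPE, with differences of -2.08, -1.68 and -1.84 (limma adjusted p = 0.0194, 0.0382 and 0.0194).

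Over the whole chromosome, 41 of 1735 fragments tested between DE and ESC passed an adjusted p of 0.05, that is 2.36%, with 13 higher (0.749%) and 28 lower (1.61%) in DE. Within 20 kb of the VPE 27 of 73 fragments that passed the minimum of 10 reads fell and none rose. In the domain beyond 20 kb 13 of 905 rose and 1 fell. Outside the domain in the window none of 739 passed with limma, while 53 had an unadjusted p under 0.05, and edgeR passed 3 there and DESeq2 none. In limma 4 passed there scaled to all interactions, 2 scaled beyond 20 kb, 3 with a constant of 50, 1 with a minimum of 30 reads, 1 without ESC replicate 1 and 9 without ESC replicate 3, all lower in DE. The fall near the VPE held in every library left out (21 to 32 fragments). The rise in the domain did not: it gave 0 or 1 fragments without any 1 of the DE libraries, 27 without ESC replicate 3, and 1 when values were scaled to interactions beyond 20 kb. Over the 5 kb bins, of which 2.58% passed (1.56% higher and 1.02% lower), 17 of 93 domain bins beyond 20 kb rose and 5 of 8 bins within 20 kb fell. With all 3 cell types in one limma fit no fragment of the chromosome passed, and 155 had an unadjusted p under 0.05.

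The domain fragments with the highest DE values relative to ESC were few reads deep and met the minimum of 10 reads through the deeper DE libraries, where they are high, so they are given as a description. The one 226 kb upstream of the VPE (chr9:118170306-118171148) held 7.22, 0 and 15.9 in ESC, 77.4, 33.5 and 64.2 in DE, and 6.51, 0 and 0 in erythrocytes. The difference between DE and ESC was 1.99 on the log2(value + 10) scale. Others lay 156, 363, 413 and 430 kb upstream, with differences of 1.87, 1.95, 1.84 and 1.75. The one that fell, an 85-base fragment 250 kb upstream, held 36.1, 21.4 and 47.7 in ESC and 2.77, 4.79 and 0 in DE.

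Between erythrocytes and ESC 75 of 787 fragments passed, that is 9.53%, with 3 higher (0.381%) and 72 lower (9.15%). In the domain beyond 20 kb 55 of 539 tested fell and none rose, and outside it 2 of 175 fell. Between erythrocytes and DE 392 of 1527 passed, that is 25.7%, with 11 higher (0.72%) and 381 lower (25%). Of the lower ones, 307 of 872 tested lay in the domain and 69 of 569 outside it. Fragments could meet the minimum of 10 reads through the deeper DE libraries alone, so this direction is given as a description. With edgeR 193 in the domain and 3 outside it passed, all lower. These counts are unsteady: against ESC only 4 fragments, all higher, passed with TMM scaling, which moved the median difference of all fragments from -0.94 to -0.56, and the domain count fell to 0 without ESC replicate 2. Against DE the domain count ranged from 94 to 346 with 1 library left out. The 5 kb bins gave a fuller count, with 58 of 93 domain bins lower against ESC and 72 of 93 lower against DE, where 17.4% of all bins passed against ESC (0.187% higher, 17.2% lower) and 6.13% against DE (0.219% higher, 5.91% lower).

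Examples of lower contact in the domain lie around 100 kb upstream. The fragment 106 kb upstream (chr9:118289758-118290327) held 65.0, 42.8 and 0 in ESC, 108, 79.0 and 104 in DE and 6.51, 0 and 0 in erythrocytes. The fragment 99.1 kb upstream held 86.7, 85.6 and 63.6 in ESC, 133, 74.2 and 64.2 in DE and 6.51, 0 and 0 in erythrocytes. Each value of 6.51 is 1 read. Erythrocyte minus DE differences were -3.17 and -3.03 on the log2(value + 10) scale, a description only, since both fragments met the minimum of 10 reads through DE and the size depends on the added 10.

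The 3 fragments that rose in erythrocytes against ESC follow each other from the downstream end of the viewpoint. Against DE, 11 fragments within 20 kb rose, among them these 3 and the last fragment of the gene. The fragment at chr9:118398390-118399323, which holds the CTCF core match shown above, held 571, 478 and 509 in ESC, 393, 407 and 578 in DE and 1829, 1231 and 4744 in erythrocytes. All erythrocyte libraries lay above the others, replicate 3 farthest. Its difference was 2.07 against ESC (limma adjusted p = 0.0194) and 2.26 against DE (limma adjusted p = 0.0182). The 2 fragments between it and the viewpoint moved the same way, with 2617, 1231 and 4663 in erythrocytes against 888, 877 and 636 in ESC for the nearer one. The other, 108 bases long, held 1217, 735 and 4601 in erythrocytes against 498, 307 and 493 in ESC. In erythrocyte replicate 3 these fragments and the last of the gene held 4601 to 4969, although their lengths ran from 108 to 935 bases. All lie beside the viewpoint fragments, and the part of this position in their values was not tested.

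The elements placed by the study at fixed distances from the Eomes start site were compared as stretches of 1.5 kb to either side. Those at -93, -73, -45 and -38 kb lie in the upstream domain, and the one at +9 kb falls in the viewpoint fragments and has no value. Between DE and ESC none of the 4 passed the test, with differences of 0.45, -0.15, 0.22 and 0.14 (limma adjusted p = 0.174, 0.677, 0.554 and 0.663). The last of these turned to -0.05 when scaled to interactions beyond 20 kb. The element at -73 kb separated erythrocytes most clearly. It held 361, 364 and 366 in ESC, 368, 321 and 296 in DE and 52.1, 51.3 and 40.9 in erythrocytes. The differences were -2.69 against ESC (SE 0.39, limma adjusted p = 2.12e-07) and -2.54 against DE (SE 0.33, limma adjusted p = 0.00021).

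The other 3 elements had smaller differences. At -93 kb the values were 246, 193 and 207 in ESC, 296, 259 and 341 in DE and 117, 85.5 and 102 in erythrocytes, with differences of -1.01 against ESC (limma adjusted p = 0.0512) and -1.47 against DE (0.00503). At -45 kb they were 274, 228 and 413, then 351, 338 and 351, then 130, 222 and 143, with differences of -0.84 (limma adjusted p = 0.0791) and -1.06 (0.044). At -38 kb they were 397, 392 and 350, then 396, 426 and 439, then 267, 239 and 286, with -0.51 (limma adjusted p = 0.311) and -0.65 (0.164). Every erythrocyte library lay below every ESC and DE library in all 4 elements, as it did in 27.4% of all bins against ESC and 22.3% against DE, and 58 and 72 of the 93 domain bins were lower in the tests above.

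Of the start sites of protein-coding genes in the window, 20 could be tested between DE and ESC. Of these, 1 passed as higher and 3 as lower, against 3.13% higher and 1.56% lower of the bins fitted with them. Azi2, at the far end of the domain, rose from 65.0, 71.3 and 63.6 to 169, 192 and 207 (difference 1.38, SE 0.27, limma adjusted p = 0.000428). Cmc1, which encodes an assembly factor of mitochondrial cytochrome c oxidase and starts 337 kb upstream, held 181, 278 and 111 in ESC and 288, 287 and 326 in DE (0.72, limma adjusted p = 0.0529). Downstream the direction was the opposite. Itga9, an integrin subunit gene that starts 119 kb downstream outside the domain, fell from 159, 193 and 302 to 116, 83.8 and 93.8 (-1.04, limma adjusted p = 0.00926). Plcd1, a phospholipase C gene 606 kb downstream, fell from 108, 99.9 and 79.5 to 44.3, 40.7 and 14.8 (-1.36, limma adjusted p = 0.0184). Ctdspl, a phosphatase gene 439 kb downstream, also fell (-1.12, limma adjusted p = 0.04), with overlapping libraries. Golga4, a golgin gene whose start lies 19.1 kb downstream inside the domain, held 650, 699 and 779 in ESC and 586, 529 and 484 in DE (-0.41, limma adjusted p = 0.0693). With 1 library left out between 1 and 3 start sites passed, Azi2 each time, and with all 3 cell types in one fit none did.

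Against ESC 5 of 13 start sites passed as lower in erythrocytes and none as higher, and against DE 3 of 19 passed as lower and none as higher. Of the bins fitted with them, 17.7% and 5.91% were lower. The counts moved with the libraries: against ESC 2 of 10 fell without ESC replicate 1 and likewise without replicate 2, and against DE 8 fell without erythrocyte replicate 1, 6 without replicate 3 and 8 with all 3 cell types in one fit. Golga4 held 293, 239 and 409 in erythrocytes, below all ESC libraries (-1.18, limma adjusted p = 0.00217). Cmc1 fell against both ESC (-1.20, limma adjusted p = 0.0319) and DE (-1.92, 0.00137). Azi2 fell against DE (-1.49, limma adjusted p = 0.0139) and differed from ESC by -0.12 (0.917). The rest were distant genes downstream, namely Ctdspl, Vill and Plcd1 against ESC and Dlec1 against DE.

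The VPE was also set against the Eomes promoter viewpoint and against PSE_a and PSE_b, both enhancers just upstream of the gene. Leaving out 20 kb around the VPE removes its own near contact but not all of theirs, so shares taken that way (42.7% ± 1.52 in ESC, 43.8% ± 1.20 in DE and 19.5% ± 1.29 in erythrocytes for the Eomes promoter) cannot be ranked against those of the VPE. Leaving out 50 kb, added after the values were seen, clears 20 kb around each viewpoint. It also removes the whole downstream part of the domain, whose right edge lies 39.1 kb away. The domain shares taken this way therefore cover only its upstream part. The stretch left out is still centred on the VPE, and the other viewpoints lie upstream of it. Their upstream contact is therefore counted from a shorter distance than that of the VPE, and their downstream contact from a longer one. The part of position in the differences below was not tested. The domain then held 33.5% ± 0.284 of VPE contact in ESC, 34.4% ± 0.789 in DE and 12.5% ± 1.02 in erythrocytes. The Eomes promoter viewpoint held 37.7% ± 1.23, 39.0% ± 1.17 and 13.8% ± 0.938. The VPE share was the lower in 3 of 3 libraries of each cell type, by a within-library difference of -4.20 ± 1.07 points in ESC, -4.54 ± 0.471 in DE and -1.23 ± 0.281 in erythrocytes. This difference was smaller in erythrocytes than in ESC by 2.97 points and than in DE by 3.31 points (exact permutation p = 0.1 each), and DE differed from ESC by -0.346 points (exact permutation p = 0.6). Against PSE_a and PSE_b the VPE share was lower in all ESC and DE libraries, with differences of -6.42 and -6.47 points in ESC and -2.93 and -3.92 in DE, and in erythrocytes it was lower in 1 and 2 of 3 libraries. At the left edge the VPE step exceeded that of the Eomes promoter in 3 of 3 libraries of each cell type, by 2.54 on average in ESC, 0.614 in DE and 1.24 in erythrocytes. In ESC the windows outside this edge held only 28, 43 and 16 reads for the VPE and 29, 52 and 25 for the promoter.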

How the data were processed

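NG Capture-C interactions from the VPE, PSE_a, PSE_b and Eomes promoter viewpoints were read for 9 libraries, each captured with enhancer and with promoter probes (18 samples). Per the labels and the study's methods, the authors mapped reads to mm9 with Capture-C scripts (Trim Galore and Bowtie are named in their processing notes) and deposited, per DpnII fragment, a signal scaled to 100000 interactions per library and viewpoint. The sources used here name no versions and do not state how PCR duplicates were handled. The 72 other columns of the deposited tables (of 108) were not used. All values came back as whole reads within 0.05 of a read.

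Each VPE column was rescaled to 100000 interactions on chromosome 9. Fragments holding 10 or more reads in the 6 libraries of a comparison were tested with limma 3.58.1 (lmFit, eBayes with trend, R 4.3.3) on log2(value + 10), with Benjamini-Hochberg adjustment over all chromosome 9 fragments and a threshold of 0.05. Promoter, gene body, start sites and elements were tested together with the 5 kb bins. These features overlap, so the same reads enter more than once. The gene body was entered whole, by its exon and intron parts and by fragment, beside the bins that hold it. Shares, steps and ratios were compared by exact two-sided permutation (scipy 1.17.1). Alternatives used TMM scaling and the quasi-likelihood test of edgeR 4.0.16, size factors and the test of DESeq2 1.42.0 on recovered reads, other scales, added constants of 2 and 50, read minimums and left-out libraries. The fits were run on simulated reads drawn with a common spread for all libraries of a comparison. That setting does not cover the uneven spread of the erythrocyte libraries, so no conclusion is drawn from it. Depth ran from 7894 to 72117 interactions per library, so low fragments of erythrocytes rest on few reads. Members and lists were chosen with earlier results of these data known. Named fragments are up to 5 with the highest and 5 with the lowest difference past the threshold without overlap, within and beyond 20 kb, together with the gene body, promoter, start sites, elements and edges.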

Additional observations from a re-analysis of the deposited data

How the results depend on the processing

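The domain share of erythrocytes below ESC and DE, their lower left step and the higher ratio of upstream to downstream contact in DE kept their direction in every alternative tried. The domain share of DE minus ESC changed sign, to -1.66 points with 10 kb left out around the VPE and -0.317 with the ends moved 20 kb outwards, and ran from -0.0506 to 0.710 with 1 library left out. The right step changed sign with 25 kb windows, to 0.752 for DE minus ESC and -0.722 for erythrocytes minus DE.

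Counts of fragments that passed moved most. DE against ESC gave 24 with a constant of 2, 0 with all 3 cell types in the fit (limma; 41 otherwise), and 21 to 68 with 1 library left out. Erythrocytes against ESC (75) gave 4 with TMM, 4 with DESeq2 size factors, 220 scaled to all interactions, 47 scaled beyond 20 kb, 19 with DESeq2, 44 with a constant of 2, 5 and 42 with minimums of 1 and 30 reads, 213 with all 3 cell types and 2 to 121 with 1 library left out. Erythrocytes against DE (392) gave 249 with TMM, 213 with edgeR, 28 with DESeq2, 13 with a minimum of 1 read, 84 over 5 kb bins and 113 to 484 with 1 library left out. For DE against ESC the split of higher to lower was 13 to 28, and 1 to 36 beyond 20 kb, 2 to 42 over all interactions, 16 to 18 with TMM, 16 to 21 with DESeq2 size factors and 9 to 37 with edgeR. Bins of DE against ESC that passed were 33 alone and 60 when fitted with the regions. The causes were not tested.

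The gene body of erythrocytes minus ESC was -0.66 scaled to all interactions (limma adjusted p = 0.033) and -0.54 to 0.018 with 1 library left out. Erythrocytes minus DE was 0.75 with all 3 cell types (limma adjusted p = 0.00171) and 0.44 to 1.00 with 1 library left out.

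Among single values, sign changes were as follows. Within-library differences from PSE_a ran from -6.89 to 3.26 points (share, erythrocytes minus ESC) and -0.836 to 0.629 (left step, erythrocytes minus DE) with 1 library left out, and with 50 kb left out the share differences from PSE_a were 6.33 (erythrocytes minus ESC) and 2.85 (erythrocytes minus DE). From PSE_b they ran from -0.928 to 0.187 (left step, erythrocytes minus DE), and the share was -0.480 over the window. From the Eomes promoter the right step of DE minus ESC ran from -1.28 to 0.495 and the share was 1.32 over the window. Start sites with few reads crossed 0 with 1 library left out: for DE minus ESC, Dlec1 (-0.20 to 0.22), Xylb (-0.36 to 0.26), Acaa1b (-0.42 to 0.016), Acvr2b (-0.90 to 0.13) and Exog (-0.55 to 0.041), for erythrocytes minus ESC, Azi2 (-0.30 to 0.15) and Zcwpw2 (-0.51 to 0.29, and 0.041 with edgeR), and for erythrocytes minus DE, Acvr2b (-0.67 to 0.40). Dlec1 was also -0.15 over all interactions, -0.14 beyond 20 kb and -0.10 with edgeR, and the -38 kb element of DE minus ESC was -0.070 over all interactions and -0.048 beyond 20 kb. Exon fragments of erythrocytes minus ESC ran from -0.54 to 0.091, and the promoter of erythrocytes minus DE from -0.15 to 0.12, and was 0.20 beyond 20 kb.

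Same-numbered libraries did not deviate together (correlations of -0.131 to 0.0979). This cannot exclude that they were handled together, and the main fits do not use the numbers. With the replicate block, 49, 85 and 464 fragments (3 of them in the window outside the domain for the first) passed for DE against ESC, erythrocytes against ESC and erythrocytes against DE, and the gene body of DE minus ESC stayed at -0.98 (limma adjusted p = 9.87e-16).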

Other observations

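The 5 kb bin centred 493.8 kb upstream of the VPE, beyond the left edge, had no read in any of the 6 ESC and DE libraries and held 39.1, 34.2 and 0 interactions per 100000 in the erythrocyte libraries. These are few reads, strain and cell type differ together here, and no test was made.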
